A study of Mus musculus with 8 samples.

Results

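The genes of the imprinted Dlk1-Dio3 locus on mouse chromosome 12 were followed, namely Dlk1, Meg3, Rtl1, Rian, Mirg and Dio3, in 8 malignant mesothelioma (MM) samples, MM being a cancer of the cells that line the chest and abdomen. The 6 genes were picked by symbol out of 52636 genes in each count table, with their levels in these samples already known. They are ordered here by their start on GRCm38, from 109452823 for Dlk1 to 110279068 for Dio3, and all 6 passed the filter on low counts that left 17709 genes for testing. The groups were 6 samples of MM with a triple knockout of Nf2, Cdkn2a and Bap1, and 2 samples of MM with a double knockout of Nf2 and Cdkn2a. By their labels both groups thus carry knockouts of Nf2 and Cdkn2a and differ in Bap1, which encodes a nuclear deubiquitinase. The labels describe cells held in RPMI medium with serum and insulin, total RNA and enrichment of messenger RNA. Muscle, leukocyte and endothelial transcripts were nonetheless counted in all 8 samples, so whether cultured cells or tissue were sequenced is unclear. The mouse strain, the age of the animals, the driver of the deletions and the number of animals behind the samples are not in the labels, so p-values reflect only the spread among these 8 samples, which may be technical. The reads were counted per gene, so which parental copy they came from was not measured.

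Imprinted genes are transcribed mainly from 1 parental copy. At this locus a control region between Dlk1 and Meg3 is methylated on the copy from the father. Meg3, Rian and Mirg, long non-coding RNAs that host many small RNAs, are made from the copy from the mother. Dlk1, which encodes a transmembrane protein related to Notch ligands, Rtl1, which derives from a retrotransposon, and Dio3, which encodes the deiodinase that inactivates thyroid hormone, are expressed mainly from the copy from the father. Dlk1 is known as an inhibitor of adipocyte differentiation, and the locus is active in embryonic tissues, placenta and muscle.

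Total counts were 28326756 to 30232440 in the triple knockout samples, against 32082535 and 26847202 in double knockout samples 1 and 2. Double knockout sample 1 stood apart: its TMM factor, a scaling for library composition, was 0.771, against 0.994 to 1.10 in the other 7 samples, and mitochondrial genes held 4.04% of its counts, against 1.16% to 2.33%. Bap1 ran from 43.1 to 72.1 CPM (counts scaled to a common library size) in triple knockout samples, against 106 and 71.2 CPM in double knockout samples, a log2 difference of -0.60 (edgeR adjusted p = 0.122), so Bap1 RNA was still counted in every sample labelled triple knockout. Nf2 had 62.7 to 100.3 CPM in triple knockout samples, against 165 and 109 CPM in double knockout samples, and Cdkn2a had 4.05 to 8.76 CPM, against 1.54 and 5.16 CPM, so RNA of both was also counted in all 8 samples. The tables do not show which exons were deleted. Of 15 mesothelial markers, Msln had 12.6 to 194 CPM in triple knockout samples, against 251 and 342 CPM in double knockout samples, while Calb2 was at 0 in 5 of the triple knockout samples and in both double knockout samples, and Wt1 exceeded 2 CPM only in triple knockout sample 3, with 33.2 CPM. Triple knockout sample 3 stood apart on this list, also holding the highest Upk3b (173 CPM), Upk1b (137 CPM), Gpm6a (108 CPM), Muc16 (95.7 CPM) and Krt19 (52.9 CPM), while Krt8 was highest in double knockout sample 2 (799 CPM). Pdpn averaged 143 ± 50.3 CPM in triple knockout samples (SD, n = 6) and 71.1 ± 17.8 CPM in double knockout samples (SD, n = 2). The values of the locus genes are therefore given with and without each double knockout sample.

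The starts of Meg3, Dlk1 and Dio3 are shown first because the first 2 had the highest mean levels per kilobase in the triple knockout samples and the third runs the other way. Each is a RefSeq sequence of 300 bases on the plus strand of GRCm38.p6, read from 250 bases before the RefSeq start of the gene to 50 bases after it, and 5 of the 6 genes had an entry. RefSeq starts can differ from those in the count tables, given with each gene further on, and the Dio3 sequence begins nearer to the start in the tables than those of Meg3 and Dlk1. Meg3 had 2 entries, and the one shown holds the start in the tables. The motifs searched on both strands were TGCCGC, bound by the imprint-keeping protein ZFP57, TGACGTCA, the cAMP response element, CAGCTG, an E-box of the MyoD type, and TATAAA. Capitals mark the matches.
Meg3, chr12:109540746-109541045: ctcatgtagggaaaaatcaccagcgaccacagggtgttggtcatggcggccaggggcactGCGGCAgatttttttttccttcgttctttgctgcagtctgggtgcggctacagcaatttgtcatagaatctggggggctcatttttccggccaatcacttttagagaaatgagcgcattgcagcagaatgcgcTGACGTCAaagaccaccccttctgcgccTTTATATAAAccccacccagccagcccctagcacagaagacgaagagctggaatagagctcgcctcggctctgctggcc
Dlk1, chr12:109452573-109452872: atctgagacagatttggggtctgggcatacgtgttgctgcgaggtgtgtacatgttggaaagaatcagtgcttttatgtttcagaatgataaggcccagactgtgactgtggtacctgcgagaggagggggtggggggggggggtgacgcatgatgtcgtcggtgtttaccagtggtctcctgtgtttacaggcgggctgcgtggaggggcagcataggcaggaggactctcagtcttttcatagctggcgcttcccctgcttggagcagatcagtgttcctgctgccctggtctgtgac
Dio3, chr12:110278980-110279279: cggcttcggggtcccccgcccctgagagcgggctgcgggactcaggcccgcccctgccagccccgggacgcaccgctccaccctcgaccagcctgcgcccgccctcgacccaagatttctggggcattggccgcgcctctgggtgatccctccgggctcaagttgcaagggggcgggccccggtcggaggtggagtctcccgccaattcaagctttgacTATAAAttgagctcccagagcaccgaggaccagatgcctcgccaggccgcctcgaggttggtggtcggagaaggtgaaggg

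The Meg3 sequence shown held 1 match to TGCCGC on the reverse strand at base 61, 1 to TGACGTCA at base 194, and 2 overlapping matches to TATAAA at bases 222 and 226. The second Meg3 entry, at chr12:109545148-109545447, held none of the 4 motifs and 1 CpG dinucleotide. Among 32851 mouse promoters of the same length, 11.6% held TGCCGC, 1.79% held TGACGTCA and 13.6% held TATAAA. The Dlk1 sequence held none of the 4 motifs, and the Dio3 sequence held 1 match to TATAAA at base 220. CAGCTG, found in 16.3% of promoters, was in none of the 3. Dio3 had 25 CpG dinucleotides, more than 81.6% of promoters, against 13 in Meg3 and 9 in Dlk1, with a median of 7 over all promoters. A match says only that these letters are present.

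All 3 maternally expressed genes were far higher in every triple knockout sample than in either double knockout sample. Meg3 (ENSMUSG00000021268, chr12:109541001-109571726, plus strand), a long non-coding RNA described as a growth suppressor in several human tumours, had a lowest level of 646 CPM, a median of 958 CPM and a highest of 1345 CPM in triple knockout samples, against 68.3 and 52.5 CPM in double knockout samples. Its lowest triple knockout level was 9.46 times its highest double knockout level. The mean was 937 ± 246 CPM in triple knockout samples (SD, n = 6) and 60.4 ± 11.2 CPM in double knockout samples (SD, n = 2), with a fitted log2 fold change of 3.96 ± 0.38 (SE). By mean CPM in triple knockout samples Meg3 ranked 79 among the genes tested.

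Rian (ENSMUSG00000097451, chr12:109603940-109661716, plus strand), which hosts small nucleolar RNAs and microRNAs, had a lowest level of 528 CPM, a median of 743 CPM and a highest of 1027 CPM in triple knockout samples, against 43.9 and 29.1 CPM in double knockout samples. Triple knockout sample 1 was highest and triple knockout sample 5 lowest, as for Meg3. The log2 fold change of Rian was 4.37 ± 0.38 (SE), and its lowest triple knockout level was 12.04 times its highest double knockout level. Mirg (ENSMUSG00000097391, chr12:109729764-109749460, plus strand), the transcript that contains a large group of microRNAs, was present at a lower level, with 17.7 CPM lowest, 25.3 CPM median and 46.1 CPM highest in triple knockout samples, against 2.43 and 1.01 CPM in double knockout samples. The groups did not overlap, and the same 2 samples were at the ends of the range. Mirg had a log2 fold change of 4.01 ± 0.53 (SE).

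Dlk1 (ENSMUSG00000040856, chr12:109452823-109463336, plus strand) varied most among the triple knockout samples of the 4 genes that were higher there. Its lowest level was 101 CPM, in triple knockout sample 4, its median 237 CPM and its highest 603 CPM, in triple knockout sample 5, against 16.2 and 1.55 CPM in double knockout samples. The highest triple knockout level was 5.99 times the lowest, against 2.08 times for Meg3 and 2.61 times for Mirg. The double knockout samples also differed 10.4-fold from each other, on 399 and 43 counts. The groups did not overlap, and the mean was 281 ± 193 CPM in triple knockout samples (SD, n = 6) and 8.85 ± 10.3 CPM in double knockout samples (SD, n = 2), with a log2 fold change of 4.99 ± 1.197 (SE).

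Rtl1 and Dio3 are also expressed from the copy from the father. Unlike Dlk1, neither was above both double knockout samples in any triple knockout sample. Rtl1 (ENSMUSG00000085925, chr12:109589193-109600330, minus strand), which is needed for placental and muscle development in mice, had 0.5002 CPM lowest, 1.40 CPM median and 1.71 CPM highest in triple knockout samples, against 7.33 and 0.0722 CPM in double knockout samples. The 2 double knockout levels lay on either side of all 6 triple knockout levels and rested on 181 and 2 counts. The log2 fold change of -1.59 ± 1.01 (SE) was carried by double knockout sample 1: without it the value was 4.003, and without double knockout sample 2 it was -2.56. Because Rtl1 runs on the minus strand across microRNA genes of the plus strand and the strand setting of the counting is not given, its reads and theirs cannot be told apart.

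Dio3 (ENSMUSG00000075707, chr12:110279068-110281097, plus strand) was lower in every triple knockout sample, with 2.46 CPM lowest, 6.87 CPM median and 9.03 CPM highest, against 11.9 and 16.2 CPM in double knockout samples. Triple knockout sample 1, the highest for Meg3, Rian and Mirg, was the lowest for Dio3. The log2 fold change was -1.12 ± 0.42 (SE). Dio3os, a non-coding RNA that starts close to Dio3 and is transcribed away from it, had 29 to 104 counts in triple knockout samples, against 179 counts in each double knockout sample, and its pooled count ratio was 0.366 (exact 95% interval 0.318 to 0.421, counting error only). Over samples its log2 fold change was -1.46 ± 0.43 (SE), and it was not called in the edgeR fit.

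**Figure D1:**
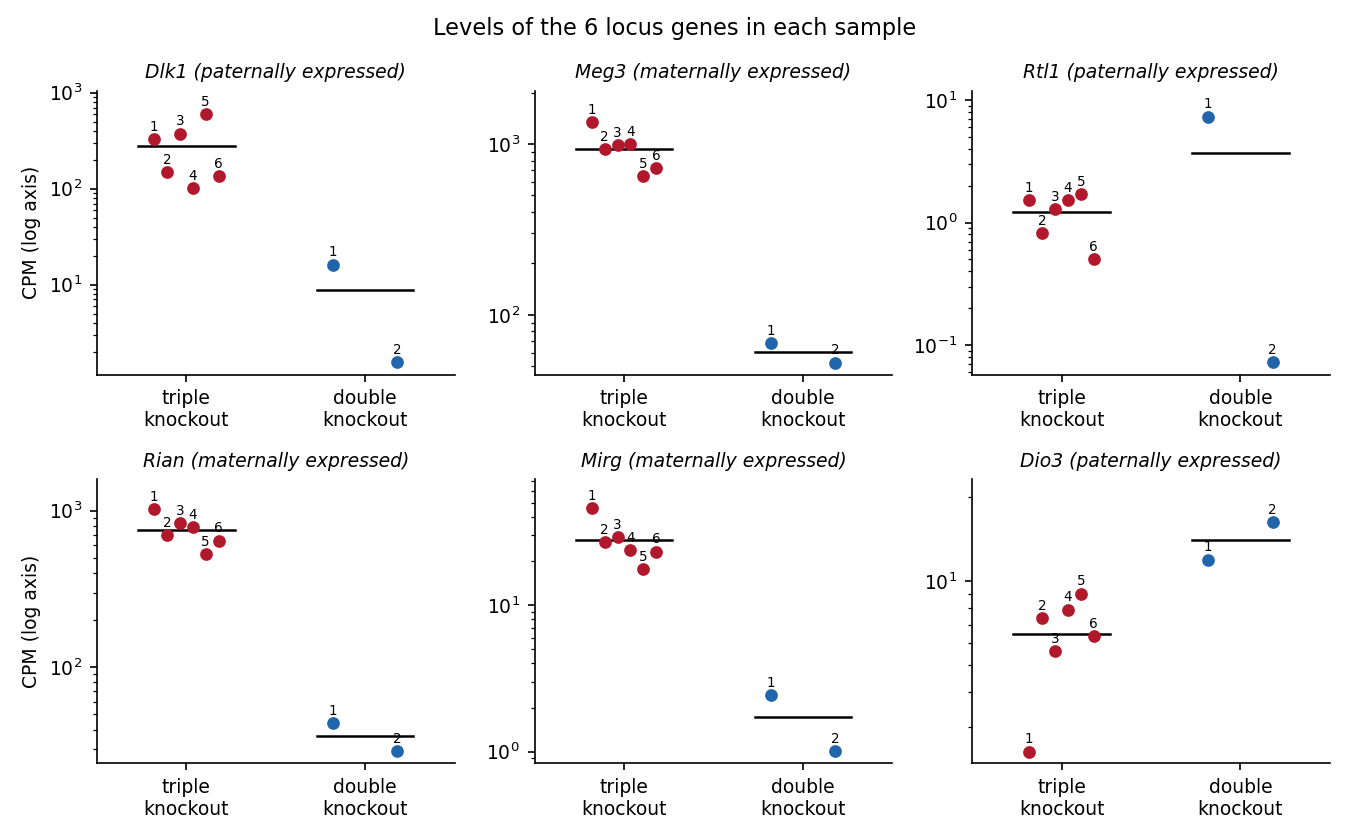
TMM-scaled CPM on a log axis for each of the 6 genes, with 1 point per sample, triple knockout samples left and double knockout samples right. Dlk1, Meg3, Rian and Mirg lie higher in all 6 triple knockout samples, Dio3 lies lower in all 6, and the double knockout levels of Rtl1, 7.33 and 0.0722 CPM, enclose the triple knockout levels.

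Counting samples, 4 of the 6 genes were above both double knockout samples in all 6 triple knockout samples, as were 12.8% of the genes tested, and 1, Dio3, was below both in all 6, as were 11.4%. At an adjusted p of 0.05 in edgeR's quasi-likelihood test, the same 4 were called higher, beside 2.94% of the genes tested, and none was called lower, beside 5.41%; in either direction it was 4 of 6, beside 8.35%. The genes were proposed with this comparison known, so the values describe them and nothing is read from these shares. Without double knockout sample 1 the log2 fold changes were 7.48 for Dlk1, 4.15 for Meg3, 4.69 for Rian, 4.77 for Mirg and -1.34 for Dio3. Without double knockout sample 2 they were 4.14, 3.79, 4.12, 3.53 and -0.87 for the same genes. Without any 1 triple knockout sample, sample 3 included, they ran from 4.62 to 5.16 for Dlk1, 3.83 to 4.04 for Meg3, 4.26 to 4.45 for Rian, 3.81 to 4.11 for Mirg and -1.24 to -0.96 for Dio3. Samples whose description carries the code SN930, 3 triple knockout and 1 double knockout, gave 4.13 for Dlk1, 3.55 for Meg3, -2.53 for Rtl1, 3.92 for Rian, 3.17 for Mirg and -0.60 for Dio3. Samples with other codes, also 3 and 1, gave 7.49, 4.36, 3.98, 4.86, 5.05 and -1.66 for the same genes. What the codes mean is not stated.

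Summed marker levels of embryonic muscle and of fibroblasts did not overlap between the groups, while those of the other cell types did. The summed level of 20 embryonic muscle markers was 67.2 to 1844 CPM in triple knockout samples, against 21875 and 4626 CPM in double knockout samples. In the edgeR fit 15 of the 20 fell (75%), beside 5.41% of all genes tested. Only Mymx, in triple knockout sample 4, was at 0 in any sample. The summed level of 20 adult skeletal muscle markers was 158 to 17227 CPM in triple knockout samples, against 86176 and 3473 CPM in double knockout samples. Of these 2 fell (10%), beside the same 5.41%. The 12 fibroblast markers summed to 20490 to 45633 CPM in triple knockout samples, against 11887 and 14296 CPM in double knockout samples. Of these 2 rose (16.7%), beside 2.94% of all genes tested. Col1a1, Col1a2 and Col3a1 were by far the highest of the 12, so the sum mainly follows collagen genes. Col1a1 itself overlapped, with 2998 to 19157 CPM in triple knockout samples, against 3305 and 3261 CPM in double knockout samples. Of the 12, 4 were above both double knockout samples in all 6 triple knockout samples, as were 12.8% of the genes tested. The 11 preadipocyte and adipocyte markers summed to 81.3 to 479 CPM in triple knockout samples, against 2825 and 126 CPM in double knockout samples. The 12 endothelial markers summed to 298 to 698 CPM in triple knockout samples, against 632 and 436 CPM in double knockout samples. The 16 leukocyte markers summed to 1682 to 2525 CPM in triple knockout samples, against 908 and 1741 CPM in double knockout samples, and the 15 mesothelial markers to 151 to 1194 CPM, against 478 and 1434 CPM. Among neuroendocrine and Schwann cell markers, Prl and Gh were at 0 in all 8 samples. In bulk RNA, fewer cells of a type and less RNA per cell cannot be told apart, and the part of these cells in the levels of the locus was not tested.

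Levels of different genes were compared as CPM per kilobase of exon. In triple knockout samples Meg3 averaged 51.8, Dlk1 49.7 and Rian 41.3 CPM per kb, an order that did not exceed their spread between samples, followed by Mirg at 3.81, Dio3 at 3.18 and Rtl1 at 0.193. In double knockout samples Dio3 was highest at 6.94 CPM per kb, ahead of Meg3 at 3.34, Rian at 2.00, Dlk1 at 1.56, Rtl1 at 0.582 and Mirg at 0.236. Dio3 thus led in the double knockout samples, with 5.88 and 8.003 CPM per kb, and was among the 3 lowest in the triple knockout samples.

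The 3 maternally expressed genes together reached 67.1 to 137 CPM per kb in triple knockout samples, against 6.52 and 4.64 in double knockout samples. The 3 paternally expressed genes together reached 21.9 to 111 CPM per kb in triple knockout samples, against 9.89 and 8.29 in double knockout samples. The maternally expressed share was 60.0% to 82.2% in 5 triple knockout samples and 37.6% in triple knockout sample 5, where Dlk1 was highest, against 39.7% and 35.9% in double knockout samples. The share in triple knockout sample 5 therefore lay between those of the double knockout samples although its summed levels lay far above theirs.

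**Figure D2:**
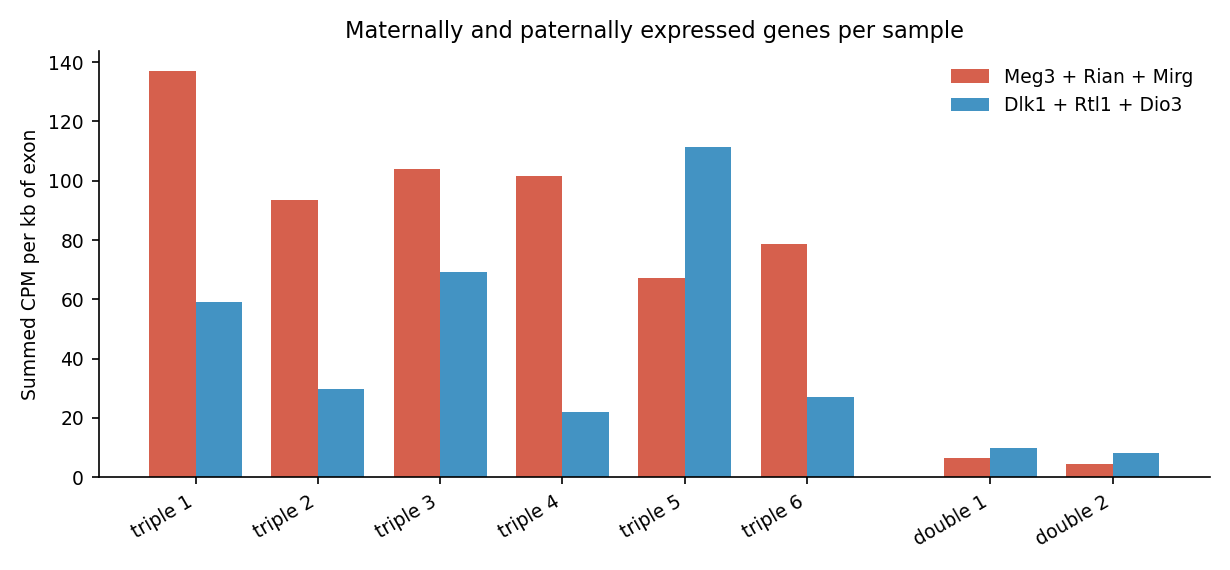
Summed CPM per kb of the maternally expressed genes (Meg3, Rian, Mirg) and of the paternally expressed genes (Dlk1, Rtl1, Dio3) in each sample, triple knockout samples left. The maternally expressed sum is 67.1 to 137 in triple knockout samples, against 6.52 and 4.64 in double knockout samples, and the paternally expressed sum is the larger in triple knockout sample 5 and in both double knockout samples.

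Ratios within a sample were steadier for the maternally expressed genes than for Dlk1. Rian stood at 0.739 to 0.884 of Meg3 per kb in triple knockout samples, against 0.637 and 0.550 in double knockout samples. Mirg stood at 0.0593 to 0.0850 of Meg3 in triple knockout samples, within the 0.0477 to 0.0882 of the double knockout samples. Dlk1 ran from 0.323 to 2.98 times Meg3 in triple knockout samples, against 0.0945 to 0.756 times in double knockout samples.

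Reads also fell on the small RNA genes that lie within and between the annotated spans of Meg3, Rian and Mirg and on toward Dio3. The annotation places 112 other genes between the start of Dlk1 and the end of Dio3, of which 65 had a count. The 67 microRNA genes together had 40 to 128 counts in triple knockout samples, against 4 in each double knockout sample, and the pooled ratio per library size was 15.7 (exact 95% interval 7.91 to 36.6, counting error only). The 23 small nucleolar RNA genes together had 20 to 107 counts in triple knockout samples, against 2 and 4 in double knockout samples, a pooled ratio of 14.2 (exact 95% interval 6.45 to 39.0). Both ratios lie near the 15.5-fold and 20.6-fold of Meg3 and Rian. These libraries held enriched messenger RNA, so the counts are fragments across precursor genes and measure no mature microRNA, and reads of longer transcripts that cross these genes cannot be told apart from them.

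**Figure D3:**
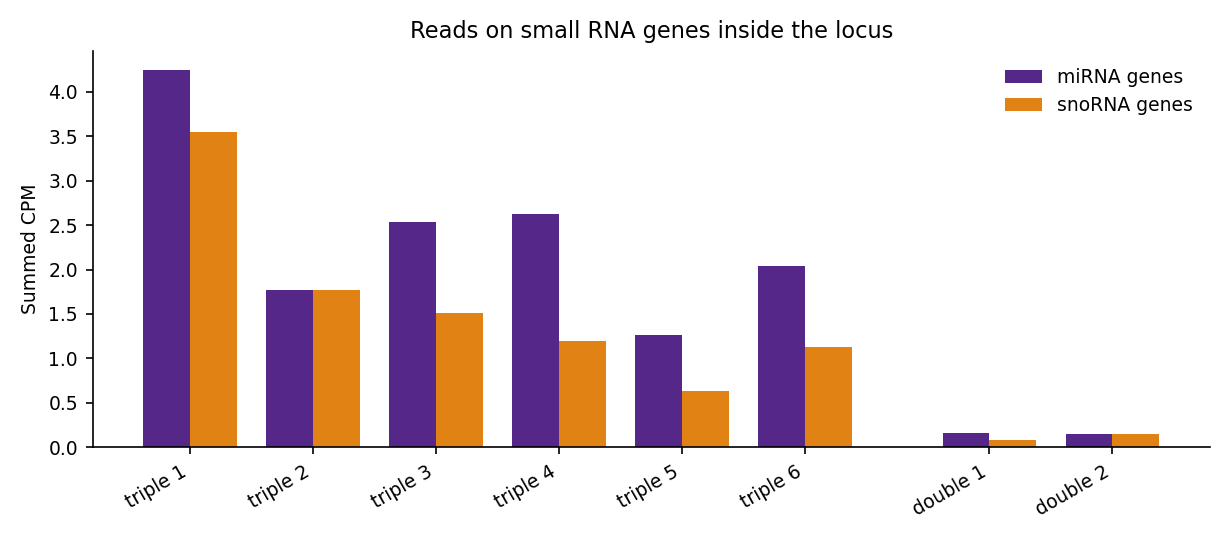
Summed CPM of the microRNA genes and of the small nucleolar RNA genes inside the locus in each sample, triple knockout samples left. The microRNA bars reach 1.27 to 4.25 CPM in triple knockout samples, against 0.162 and 0.144 CPM in double knockout samples.

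Of 44 microRNA genes with a count, 37 were at 0 in both double knockout samples. The double knockout samples held 8 counts over all these genes, so most had to be at 0 there and nothing is read from that number. Only 1 microRNA gene, Mir433, passed the filter on low counts. Mir433 led them with 2 to 15 counts in each triple knockout sample, 58 in all, against 0 in the double knockout samples, at least 5.49-fold higher against a floor of 3 counts over the double knockout group. Among microRNA genes at 0 in double knockout samples, next came Mir3072 with 35 counts, Mir3070b with 33, Mir493 with 30, Mir3070a with 25 and Mir434 with 24. Against the same floor they were at least 3.31-fold, 3.12-fold, 2.84-fold, 2.37-fold and 2.27-fold higher. These genes were picked for their 0 in double knockout samples, so the bounds describe them and test nothing. Outside that choice, Mir1188 had 31 counts in triple knockout samples, against 1 in double knockout samples. Mir433 and Mir434 lie on the plus strand within the span of Rtl1, and both are known in mice to be processed from an antisense transcript of Rtl1. Mature sequences of Mir433, Mir3072, Mir493, Mir3070a, Mir3070b and Mir434 from RefSeq, GRCm38.p6, are shown, apart from miR-3070-5p, which Mir3070a and Mir3070b share. These genes carried the most counts among microRNA genes at 0 in double knockout samples. Capitals mark the seed, bases 2 to 8.
miR-433-5p: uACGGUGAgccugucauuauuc
miR-433-3p: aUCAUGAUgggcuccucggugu
miR-3072-5p: aGGGACCCcgagggagggcagg
miR-3072-3p: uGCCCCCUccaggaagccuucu
miR-493-5p: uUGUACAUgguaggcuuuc
miR-493-3p: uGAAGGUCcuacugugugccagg
miR-3070-3p: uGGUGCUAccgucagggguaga
miR-3070-2-3p: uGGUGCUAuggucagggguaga
miR-434-5p: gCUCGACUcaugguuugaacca
miR-434-3p: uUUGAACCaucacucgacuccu

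The 2 forms of miR-3070-3p share the seed GGUGCUA and differ outside it. Across the locus RefSeq lists 114 mature entries for 61 genes, with 113 distinct sequences and 104 distinct seeds, of which 9 are shared by at least 2 sequences. Most seeds thus belonged to 1 mature sequence of the locus. Outside the small RNAs, the unnamed non-coding genes Gm26945, within the span of Rian, and B830012L14Rik had 22 to 195 and 23 to 37 counts in triple knockout samples, against 0 and 1 count in double knockout samples for each. They sit on the plus strand, as Meg3, Rian and Mirg do.

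Variation among the 6 triple knockout samples is separate from the comparison of genotypes. The genes were nonetheless chosen with their levels in these samples known, so the p-values of the correlations describe these samples and are no independent test. Over 15 pairs of genes, log2 CPM of Meg3 and Rian correlated with Pearson's r of 0.97 (exact permutation p = 0.00278, 2-sided, adjusted p = 0.0417) and Spearman's rho of 0.94 (p = 0.0167, adjusted p = 0.125). Without the 2 samples farthest from the median of Meg3, triple knockout samples 1 and 5, r was 0.85. This was the 1 pair of 15 to pass the threshold. Meg3 with Mirg (r = 0.93, exact permutation adjusted p = 0.0521) and Rian with Mirg (r = 0.93, adjusted p = 0.0521) missed it, and their r without the same 2 samples was 0.57 in each case. Spearman's rho was 0.83 for Meg3 with Mirg and 0.94 for Rian with Mirg (exact permutation adjusted p = 0.219 and 0.125).

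Mirg and Dio3 ran in opposite directions, with r = -0.94 (exact permutation p = 0.00833, adjusted p = 0.0521) and rho = -0.83 (adjusted p = 0.219). Without triple knockout samples 1 and 5 r was -0.51, so the relation rested partly on those samples. Dlk1 showed no such relation with Meg3, with r = -0.13 (exact permutation adjusted p = 0.897) and rho = -0.31 (adjusted p = 1), and r between -0.47 and 0.55 when 1 sample was left out. Without triple knockout samples 4 and 5 it was 0.73 on 4 samples, so the sign depended on the samples. Dlk1 with Rtl1 had r = 0.54 (exact permutation adjusted p = 0.628) and rho = 0.54 (adjusted p = 0.637). Without triple knockout samples 4 and 5 that r was 0.91. No value is given within description codes, since SN930 holds 3 triple knockout samples and the other 3 carry a different code each.

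**Figure D4:**
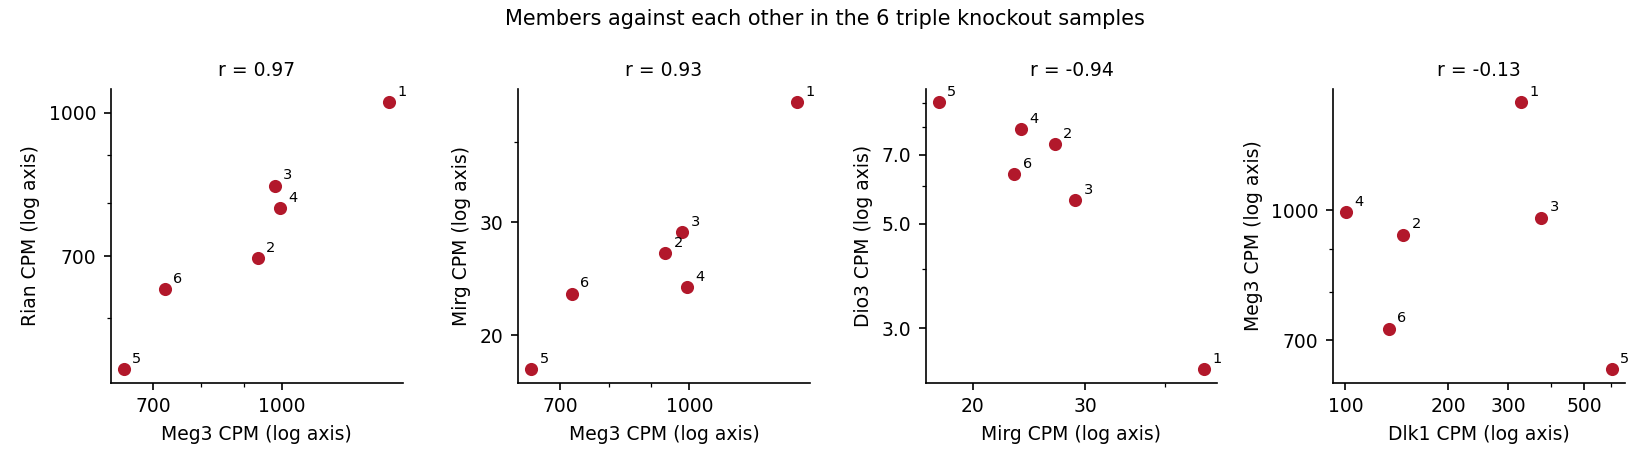
Levels of gene pairs as log2 CPM in the 6 triple knockout samples, 1 point per sample, with Pearson's r. Meg3 and Rian lie along a line with r of 0.97, Mirg and Dio3 run in opposite directions with r of -0.94, and Dlk1 and Meg3 have r of -0.13.

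Most tested genes outside the locus but within 1 Mb of it did not pass the test. Of 57 such genes 26 were tested, and 2 rose (7.69%), 2 fell and 22 were not called. The called share was 15.4%, beside 8.35% of all genes tested, of which 2.94% rose and 5.41% fell. The median log2 fold change of the flanking genes was 0.22, beside 0.02 over all genes tested. Begain (chr12:109032187-109068217, minus strand), which encodes a protein of neuronal synapses, is the nearest tested gene before Dlk1, 385 kb away. It had 14.3 CPM lowest, 22.6 CPM median and 42.9 CPM highest in triple knockout samples, against 1.58 and 3.90 CPM in double knockout samples. Begain rose by a log2 fold change of 3.29 ± 0.59 (SE, edgeR adjusted p = 0.0163, higher in 6 of 6 samples), and without double knockout sample 1 the value was 2.78 (adjusted p = 0.102). Triple knockout samples 5 and 3 held the 2 highest levels of Begain, as they did of Dlk1. They also held the 2 highest levels of Amn, on the far side of Dio3, with 7.001 and 4.20 CPM, so this was not particular to Begain.

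Amn, 990.0 kb after Dio3, encodes a partner of cubilin in vitamin B12 uptake. It had 1.83 CPM lowest, 2.67 CPM median and 7.001 CPM highest in triple knockout samples, against 0.526 and 0.542 CPM in double knockout samples, and rose by a log2 fold change of 2.69 ± 0.64 (SE, edgeR adjusted p = 0.0394). Its adjusted p was 0.207 without double knockout sample 1, 0.0569 without double knockout sample 2, and up to 0.0715 without 1 of triple knockout samples 1, 2, 3 and 4. Slc25a29, a mitochondrial carrier of basic amino acids, fell to 3.92 ± 0.72 CPM in triple knockout samples, against 12.3 and 6.498 CPM in double knockout samples (log2 fold change -1.26 ± 0.32 SE, edgeR adjusted p = 0.0476), and was -0.74 without double knockout sample 1 (adjusted p = 0.380), with the call also lost without any 1 triple knockout sample (adjusted p 0.0548 to 0.0930). Ankrd9, an ankyrin repeat gene, had 2.92 to 7.06 CPM in triple knockout samples, against 95.7 and 4.62 CPM in double knockout samples. Its log2 fold change of -3.30 ± 0.74 (SE, edgeR adjusted p = 0.0330) came from double knockout sample 1, without which it was 0.13 (adjusted p = 0.944), and the call was also lost without any 1 triple knockout sample (adjusted p 0.0559 to 0.0730).

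The other genes next to the locus did not pass the test. Wdr25, before Begain, averaged 5.05 ± 0.45 CPM in triple knockout samples and 6.75 ± 0.36 CPM in double knockout samples (log2 fold change -0.42 ± 0.25 SE, edgeR adjusted p = 0.309). Gm6988, 34.9 kb after Dio3, had -0.47 ± 0.38 (SE, edgeR adjusted p = 0.441). Ppp2r5c, a regulatory subunit of protein phosphatase 2A that lies 166 kb after Dio3, averaged 158 ± 8.72 CPM in triple knockout samples and 126 ± 5.29 CPM in double knockout samples (log2 fold change 0.33 ± 0.14 SE, edgeR adjusted p = 0.177). In the order of these genes along the chromosome, higher levels in triple knockout samples thus ran from Begain through Dlk1, Meg3 and Rian to Mirg, with Rtl1 among them as the exception.

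**Figure D5:**
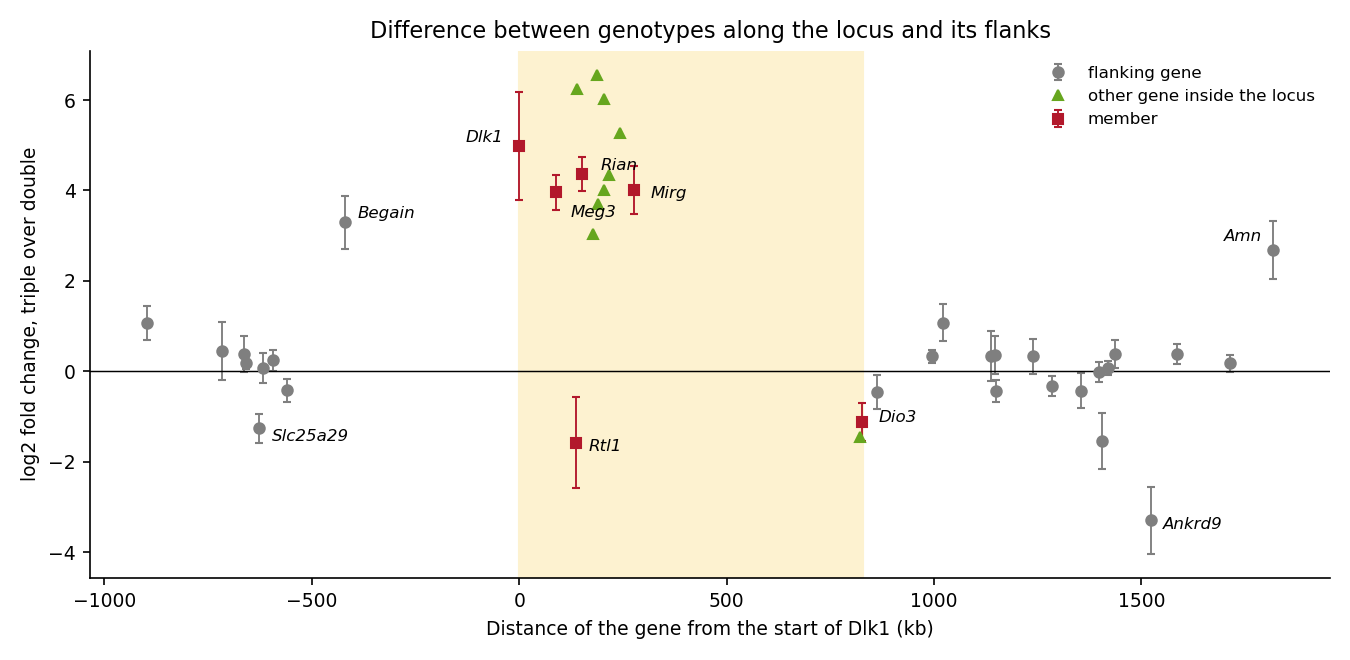
Log2 fold change, triple knockout minus double knockout, of tested genes in the locus and within 1 Mb of it, against distance from the start of Dlk1. Dlk1, Meg3, Rian and Mirg stand at 3.96 to 4.99. Of the 26 tested flanking genes 22 did not pass the test (15.4% called, beside 8.35% of all genes tested). The median of the 26 was 0.22.

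Genes of other chromosomes whose pattern over the 8 samples was most like that of a member were found by the root mean square difference of log2 CPM around each gene's own mean. For Meg3 these were Nudt10 (0.34), Gria3 (0.38), Mccc1os (0.39), Smarca1 (0.43) and Phyhipl (0.44), while Rian and Mirg differed from Meg3 by 0.21 and 0.26. Gria3, an AMPA receptor subunit, had 37.5 to 66.7 CPM in triple knockout samples, against 6.84 and 5.596 CPM in double knockout samples. For Dlk1 they included Tmem132e (0.83), Csf3 (1.03), Pcdh10 (1.15) and Ndn (1.17), and the nearest genes of its own locus were Mirg (1.205) and Rian (1.210). Rtl1 differed from Dlk1 by 2.44 and Dio3 by 3.22.

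Genes of other imprinted loci moved in both directions. The 59 that were tested included 5 that rose, 7 that fell and 47 that were not called, and their median log2 fold change was -0.05. The called share was 20.3%, beside 8.35% of all genes tested. Peg3, a zinc finger gene expressed from the copy from the father, fell to 9.18 ± 4.50 CPM in triple knockout samples, against 416 ± 199 CPM in double knockout samples (log2 fold change -5.50 ± 0.48 SE, edgeR adjusted p = 0.00138). Its neighbour Zim1 fell by 5.75 on the log2 scale (edgeR adjusted p = 0.00573), and H19, a non-coding RNA made from the copy from the mother, fell by 3.92 (edgeR adjusted p = 0.00403). Ndn, which encodes the growth suppressor necdin, rose by 3.68 ± 0.53 (SE, edgeR adjusted p = 0.00719), with 22.3 to 67.6 CPM in triple knockout samples, against 4.61 and 2.64 CPM in double knockout samples. These 4 calls held without any 1 sample.

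Among 32 tested regulators of the locus imprint, 3 rose and none fell, with a median of 0.15. The called share was 9.38%, all of it higher, beside 2.94% of all genes tested that rose and 8.35% called in either direction. Tet1, which oxidises methylcytosine, rose by 1.66 ± 0.37 (SE, edgeR adjusted p = 0.0330), Dnmt3l, a cofactor of the methyltransferases, by 4.21 ± 1.05 (edgeR adjusted p = 0.0443), and Dnmt3a, which sets new DNA methylation, by 0.86 ± 0.22 (edgeR adjusted p = 0.0452). All 3 calls were lost without double knockout sample 1 (adjusted p = 0.171, 0.268 and 0.280), those of Tet1 and Dnmt3l also without any 1 triple knockout sample, with adjusted p up to 0.0697 and 0.0766, and that of Dnmt3a without any but triple knockout sample 4, with adjusted p up to 0.0920. DNA methylation itself was not measured.

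Of 12 tested muscle regulatory genes, myocyte enhancer factor 2 genes included, none rose and 8 fell, with a median of -3.46. The called share was 66.7%, beside 8.35% of all genes tested. Whether these genes act on the locus in these samples was not tested. Myf5, Pax3 and Myog, transcription factors of muscle precursors, fell, with log2 fold changes of -6.76, -4.60 and -6.51 (edgeR adjusted p = 0.00453, 0.00328 and 0.0138), and Mef2a fell by 1.34 (edgeR adjusted p = 0.00625). Myog had 0.199 to 17.8 CPM in triple knockout samples, against 510.0 and 377 CPM in double knockout samples, and its call was lost without double knockout sample 1 (adjusted p = 0.0599). These genes moved with the embryonic muscle markers given above, whose list shares members with this one.

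Of 29 tested relatives of Dlk1 and genes of Notch and related signalling, none rose and 4 fell, with a median of -0.03. The called share was 13.8%, all of it lower, beside 5.41% of all genes tested that fell and 8.35% called in either direction. Hes6, a transcription factor of the Hes family, fell to 13.8 ± 3.01 CPM in triple knockout samples, against 157 ± 76.0 CPM in double knockout samples (log2 fold change -3.51 ± 0.28 SE, edgeR adjusted p = 0.00111). The Notch ligand Dll1, the receptor Notch3 and the insulin receptor gene Insr fell, with log2 fold changes of -2.25, -1.28 and -1.15 (edgeR adjusted p = 0.0285, 0.0487 and 0.0179). Those 3 calls were lost without double knockout sample 1 (adjusted p = 0.134, 0.101 and 0.135), that of Notch3 also without double knockout sample 2 (adjusted p = 0.138) and without any but triple knockout sample 5 (adjusted p up to 0.0961), and that of Dll1 without triple knockout sample 1, 2, 4 or 5 (adjusted p up to 0.0631).

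Of 21 tested genes of the thyroid hormone axis, in which Dio3 acts, none rose and 3 fell, with a median of -0.32. The called share was 14.3%, all of it lower, beside 5.41% of all genes tested that fell and 8.35% called in either direction. Slc7a5, a transporter of large amino acids and thyroid hormone, Klf9, a transcription factor induced by thyroid hormone, and Ncoa1, a coactivator of nuclear receptors, fell, with log2 fold changes of -1.45, -2.96 and -1.08 (edgeR adjusted p = 0.0282, 0.0315 and 0.0453). Klf9 had 14.1 to 37.3 CPM in triple knockout samples, against 430.1 and 35.1 CPM in double knockout samples, so its groups overlapped and the fall lay in double knockout sample 1. Without that sample the 3 calls were lost (adjusted p = 0.200, 0.884 and 0.508), and each was also lost without 5 or 6 single triple knockout samples, with adjusted p up to 0.0642, 0.0667 and 0.0868.

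Of 13 tested genes derived from the same kind of retrotransposon as Rtl1, 2 rose and none fell, with a median of 0.76. The called share was 15.4%, all of it higher, beside 2.94% of all genes tested that rose and 8.35% called in either direction. Zcchc12 had 0.896 to 2.76 CPM in triple knockout samples, against 0.0405 and 0.253 CPM in double knockout samples (log2 fold change 3.75 ± 0.76 SE, edgeR adjusted p = 0.0244). Rtl5 rose to 14.3 ± 3.50 CPM in triple knockout samples, against 5.17 ± 0.93 CPM in double knockout samples (log2 fold change 1.46 ± 0.33 SE, edgeR adjusted p = 0.0341). Without double knockout sample 1 the adjusted p values were 0.113 and 0.124, and Rtl5 was also lost without double knockout sample 2 (adjusted p = 0.0515) and without 1 of triple knockout samples 1 to 5 (adjusted p up to 0.0655). Of the 24 called genes named outside the 6 locus genes, 16 lost their call without double knockout sample 1, 3 without double knockout sample 2, and 8 kept it without any 1 sample.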

How the data were processed

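RNA was sequenced from 8 mouse MM samples, 6 triple and 2 double knockout. Read counts per gene, as whole numbers with coordinates, were deposited by the authors, one table per sample, in which starts count from 0; coordinates are printed from 1 on GRCm38. HTSeq, DESeq2, mm10 and GRCm38 are named, per the submitters' processing notes, with no role. For aligner, annotation release and strand setting: not given in the sources used here. Symbols were found for 52403 of 52636 gene IDs, and 49870 IDs had the coordinates of GENCODE M21, which gave exon lengths.

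Counts were fitted in edgeR 4.0.16 (R 4.3.3), with filterByExpr, TMM factors, the quasi-likelihood test and Benjamini-Hochberg adjustment over all 17709 genes tested, threshold 0.05. It was tested on simulated data. CPM are TMM-scaled, and log2 CPM used a prior count of 2. A gene is called where it passes that threshold. Correlations used all 720 pairings. No 2 samples agreed within sampling noise. Totals of 26847202 to 32082535 counts set the precision, and intervals and the floor of 3 counts cover counting error only.

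The members and lists were chosen with earlier results of these data known. Named genes were all 6 members, every called flank gene with the 2 nearest tested on each side, up to 4 called genes of smallest p per list, and the 5 most alike genes for Dlk1 and Meg3, of which 1 is not reported here. Alternatives were DESeq2 1.42.0, limma-voom (limma 3.58.1), other scalings and filters, robust dispersion, the description code as a term, within-code fits, other flank widths, and each sample left out.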

Additional observations from a re-analysis of the deposited data

Results flagged for a closer look

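In all, 3 values stood apart within the 6 triple knockout samples, among 35 gene values examined in that way, where chance flags about 5% of groups. Slc25a29 was 5.35 CPM in triple knockout sample 5, and the next highest was 3.92 CPM. Myog was 17.8 CPM in triple knockout sample 6, and the next highest was 4.403 CPM. Slc7a5 was 187 CPM in triple knockout sample 6, and the next highest was 117 CPM. None of the 6 locus genes had a sample apart by the same rule.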

How the results depend on the processing

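Meg3, Rian, Mirg, Dlk1 and Dio3 kept their direction in all 19 alternatives, but the number of called genes rested on the 2 double knockout samples. Against 520 higher and 958 lower, DESeq2 gave 1443 and 1901, the SN930 samples 887 higher, the other codes 0 and 1 (2506 at an unadjusted p under 0.05), the code as a term 369 higher and 593 lower and total counts 544 lower; leaving out 1 sample gave 103 to 2592 higher and 212 to 2987 lower, both extremes from the double knockout samples. Within SN930 and within the other codes, log2 fold changes were 3.55 and 4.36 for Meg3, 3.92 and 4.86 for Rian and 3.17 and 5.05 for Mirg, and Dlk1 was 7.49 in the other codes. Leaving out 1 sample gave 4.14 to 7.48 for Dlk1 and 3.53 to 4.77 for Mirg. Rtl1 turned to 0.58 with limma-voom, 3.98 in the other codes and 4.003 without double knockout sample 1 (-2.56 to 4.003 over samples left out). Ankrd9 turned to 0.28 in the other codes and 0.13 without double knockout sample 1 (-4.22 to 0.13 over samples left out), and Gm6988 to 0.0047 within SN930. Flanking genes higher (2) were 4 with DESeq2 and at 2 Mb, 1 with the code term, limma-voom, SN930 and 0.5 Mb, 0 in the other codes, and 0 to 4 with 1 sample left out. Flanking genes lower (2) were 4 at 2 Mb, 1 without a filter, with robust dispersion and with upper-quartile factors, 0 with the code term, limma-voom, total counts, the other codes and 0.5 Mb, and 0 to 4 with 1 sample left out. Listed genes higher (10) were 16 with DESeq2, 6 with limma-voom, 0 in the other codes and 2 to 22 with 1 sample left out, and those lower (22) were 0 in the other codes and 8 to 34. Correlated pairs (1) were 3 with total counts and 4 on the CPM scale. The cause was not tested. No paired analysis was possible because the labels give no replicate numbers, and the description code, which is no pairing of samples, was fitted as a term instead. With 2 double knockout samples, the spread of that group is poorly known.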
